A study of Homo sapiens with 8 samples.

Results

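The transcripts described here encode the G1 cyclins CCND1, CCND3, CCNE1 and CCNE2, the E2F transcription factors E2F1, E2F2, E2F7 and E2F8, and the pocket proteins RB1 and RBL1. They are 10 of the 17649 genes measured, chosen by symbol, and all 10 had a row of values in every library. RNA-Seq was performed on MDA-MB-231 cells, an established human breast cancer line that lacks the estrogen receptor and has a mesenchymal phenotype. There were 4 control libraries, from cells that received PBS, and 4 libraries from cells exposed to 1 μM N-carboxymethyllysine (CML, labelled NCML) for 48 hours. Cells of both groups were grown in low-glucose medium, and the libraries of each group carry the replicate numbers 1 to 4. CML is an advanced glycation end product, made by the reaction of sugar-derived carbonyls with lysine. All libraries come from a single cell line, and the labels do not say whether replicates were independent cultures, so p-values measure only the spread between these samples.

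D-type cyclins bind CDK4 and CDK6 and carry growth signals into the cell cycle engine, and E-type cyclins bind CDK2 as cells enter S phase. Both kinases phosphorylate RB1 and its relatives, the pocket proteins, which otherwise hold E2F factors in check. E2F1 and E2F2 activate genes of DNA replication, whereas the atypical factors E2F7 and E2F8 repress many of the same genes later in the cycle. CCNE1, CCNE2, E2F1, E2F2, E2F7, E2F8 and RBL1 are themselves known E2F targets, so that the family forms a circuit that feeds back on itself.

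Values are CPM, a gene's read count divided by its library total as the authors scaled it. The libraries held an estimated 16161627 to 18954582 reads, and 1 read was worth between 0.0535 and 0.0622 CPM. Mesenchymal and cytoskeletal markers of the line were abundant, with means of 4109 CPM for VIM and 850 CPM for CD44. PGR and FOXA1 were near 0, with means of 0.0209 and 0.0224 CPM. ESR1, CD3E and ACTA1 had no row of values under these symbols, so no level is given for them. EPCAM and ERBB2, listed as low in this line, were measured at 14.5 and 49.7 CPM. The 4 markers measured for leukocytes, endothelium and hepatocytes summed to between 3.99 and 4.85 CPM in control and between 3.55 and 4.51 CPM in CML-exposed libraries. PECAM1 was the most abundant of these at 3.21 CPM, followed by VWF, PTPRC and ALB at 0.415, 0.377 and 0.257 CPM.

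The promoters of 3 members carry the letters of an E2F element close to the start site, and these stretches are shown because they are what E2F1, E2F2 and RBL1 share in sequence. Windows of 300 bases, from 250 before to 50 after the start site, were taken from RefSeq on GRCh38.p14. Of the 10 members, 7 had windows that were searched (CCND3, CCNE1, E2F1, E2F2, E2F7, RB1 and RBL1). No window of CCND1, CCNE2 or E2F8 was searched, so whether their promoters carry these letters was not tested. Their absence here does not show that RefSeq lacks a promoter for them. The RB1 window lies at a start site inside the gene, as do the 3 windows of CCND3. The searched letters were TTTCCCGC, TTTCGCGC, TTTGCCGC and TTTGGCGC on both strands, and 3.31% of 35116 windows held at least 1 of them. TTTGGCGC alone was in 0.652% of the windows and was present in all 3 members below. The letters TTTGAA, the CHR element of G2/M genes, were in 15.2% of all windows and in none of the members' windows. The stretches read 5′ to 3′ along the gene, which is the minus strand in each case, with the matched letters in capitals. In E2F1 the first capitals are TTTGCCGC on the opposite strand.
E2F1, chr20:33686383-33686458: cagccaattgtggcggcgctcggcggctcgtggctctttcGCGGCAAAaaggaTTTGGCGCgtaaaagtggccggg
E2F2, chr1:23531253-23531315: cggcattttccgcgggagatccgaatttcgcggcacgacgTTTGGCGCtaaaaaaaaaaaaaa
RBL1, chr20:37095991-37096063: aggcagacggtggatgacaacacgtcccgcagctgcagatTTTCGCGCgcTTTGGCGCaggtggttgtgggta
The TTTGGCGC letters begin 20 bases before the start site in E2F1, 42 in E2F2 and 16 in RBL1. A match describes the letters and does not show binding.

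Levels differed far more between members than between groups. Per kilobase of the canonical transcript, CCND1 was the most abundant at 84.8 CPM/kb, followed by E2F7 at 58.7, CCND3 at 21.3 and RB1 at 16.4 CPM/kb. E2F1 was at 4.09, RBL1 at 2.36, CCNE2 at 2.04, CCNE1 at 0.707, E2F8 at 0.591 and E2F2 at 0.0537 CPM/kb. The ranges over the 8 libraries did not overlap between neighbours in this order, with the exceptions of RBL1 with CCNE2 and CCNE1 with E2F8. Within families, CCND1 was 3.98-fold above CCND3, CCNE2 was 2.89-fold above CCNE1 and RB1 was 6.94-fold above RBL1 on this scale. Among the E2F members a repressor was highest, as E2F7 stood 14.4-fold above E2F1 and 99.3-fold above E2F8. E2F genes outside the members lay between E2F7 and E2F1, with E2F4 at 27.4, E2F3 at 18.4, E2F5 at 16.4 and E2F6 at 6.71 CPM/kb. E2F7 exceeded 97.4% of all genes in CPM and CCND1 97.6%, while E2F2 exceeded 15.3%.

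**Figure D1:**
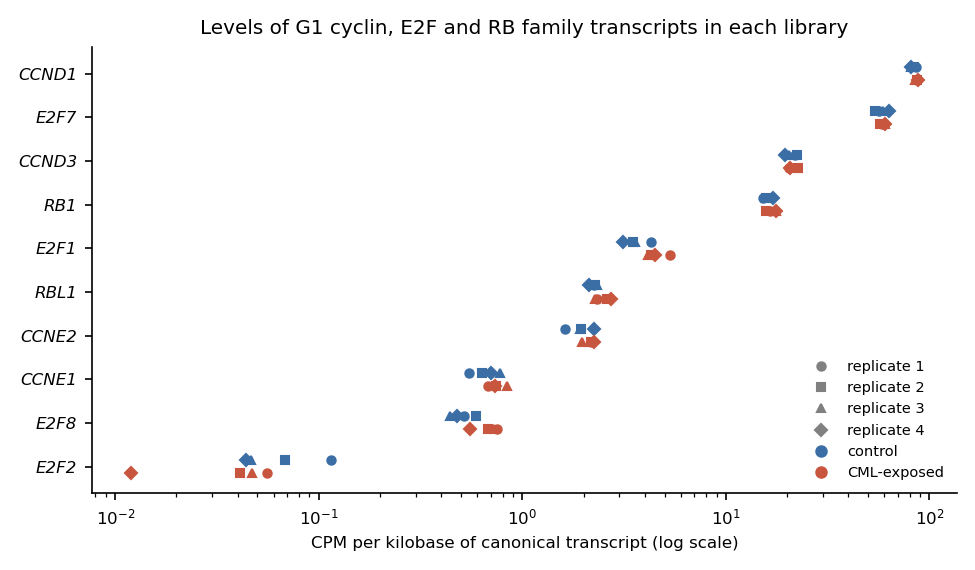
Level of each gene in each library, as CPM per kilobase of canonical transcript on a log axis, with control libraries in blue, CML-exposed libraries in red and marker shape giving the replicate. The genes span from 0.0537 CPM/kb for E2F2 to 84.8 CPM/kb for CCND1, and the groups lie close together within each gene.

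After CML exposure 9 of the 10 members had a higher mean and E2F2 had a lower one, but no member passed the test. The groups were compared with limma on log2(CPM + 1), with 2-sided p-values and Benjamini-Hochberg adjustment over all 17649 genes, and a gene was called at the adjusted p of 0.3 that the study used as its FDR. On this scale the change of low genes is understated. Of the members, 0 were called, against 0.895% of all genes in both directions and 0.674% called higher. At an unadjusted p under 0.05 stood 3 of 10, CCND1, E2F1 and E2F8, all higher, against 7.66% of all genes in both directions. The control and CML-exposed libraries overlapped for every member, whereas 3.78% of all genes had groups that did not overlap. The members' median log2 fold change was 0.09, compared with 0.01 over all genes. In bulk RNA, a shift in the share of cells in a cycle phase and a change in RNA per cell cannot be told apart.

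**Figure D2:**
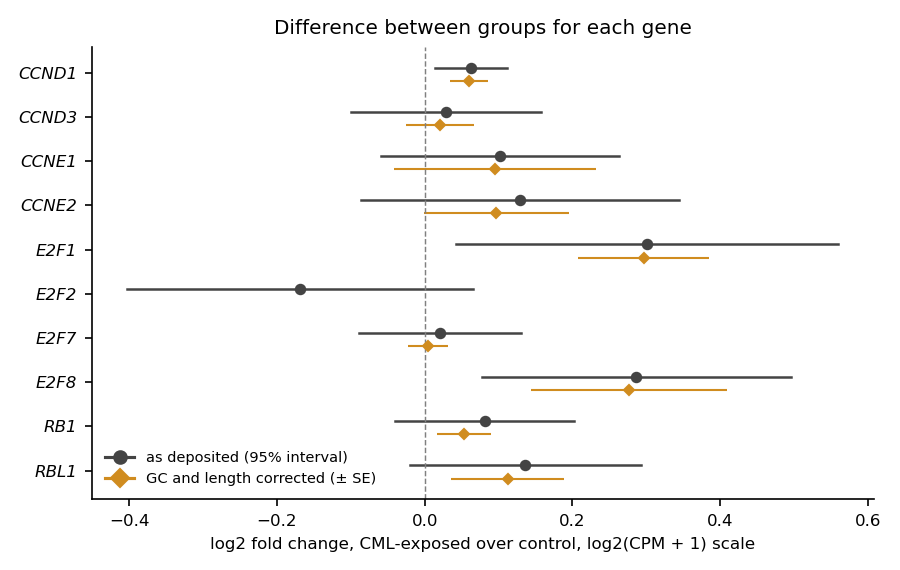
Log2 fold change of CML-exposed over control cells for each gene on the log2(CPM + 1) scale, as deposited with 95% intervals (dark circles) and after correction for GC content and transcript length with standard errors (orange diamonds). The intervals of CCND1, E2F1 and E2F8 lie above 0 before adjustment over all genes, and E2F2, with a mean under 1 CPM, has no corrected value.

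CCND1, the D-type cyclin that is amplified or overexpressed in many breast cancers, had the tightest values of the family. It lies on chromosome 11 from 69641156 to 69654474 (GRCh38.p14). The control libraries 1 to 4 held 363, 355, 342 and 345 CPM, and the CML-exposed libraries 367, 368, 362 and 371 CPM. Control replicate 1 was the only control library above a CML-exposed one, replicate 3. The mean went from 351 ± 9.49 to 367 ± 3.77 CPM (SD, n = 4), 4.43% higher. The log2 fold change was 0.06 with a standard error of 0.021 (limma, unadjusted p = 0.0196, adjusted p = 0.510). With 5662 to 6873 reads per library, counting error alone was 1.28%, compared with a spread of 2.70% among controls and 1.03% among CML-exposed libraries.

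CCND3, the related D-type cyclin on chromosome 6 from 41934933 to 42050035, did not separate by group. Control libraries held 44.5, 45.4, 41.4 and 39.8 CPM, and CML-exposed libraries 41.3, 45.7, 45.5 and 42.0 CPM. Each group had a high and a low pair of libraries over similar ranges. The means were 42.8 ± 2.63 and 43.6 ± 2.33 CPM (SD, n = 4), and the log2 fold change was 0.03 with a 95% interval from −0.10 to 0.16 (limma, adjusted p = 0.987). Its sign turned without control replicate 4, to −0.0041.

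**Figure D3:**
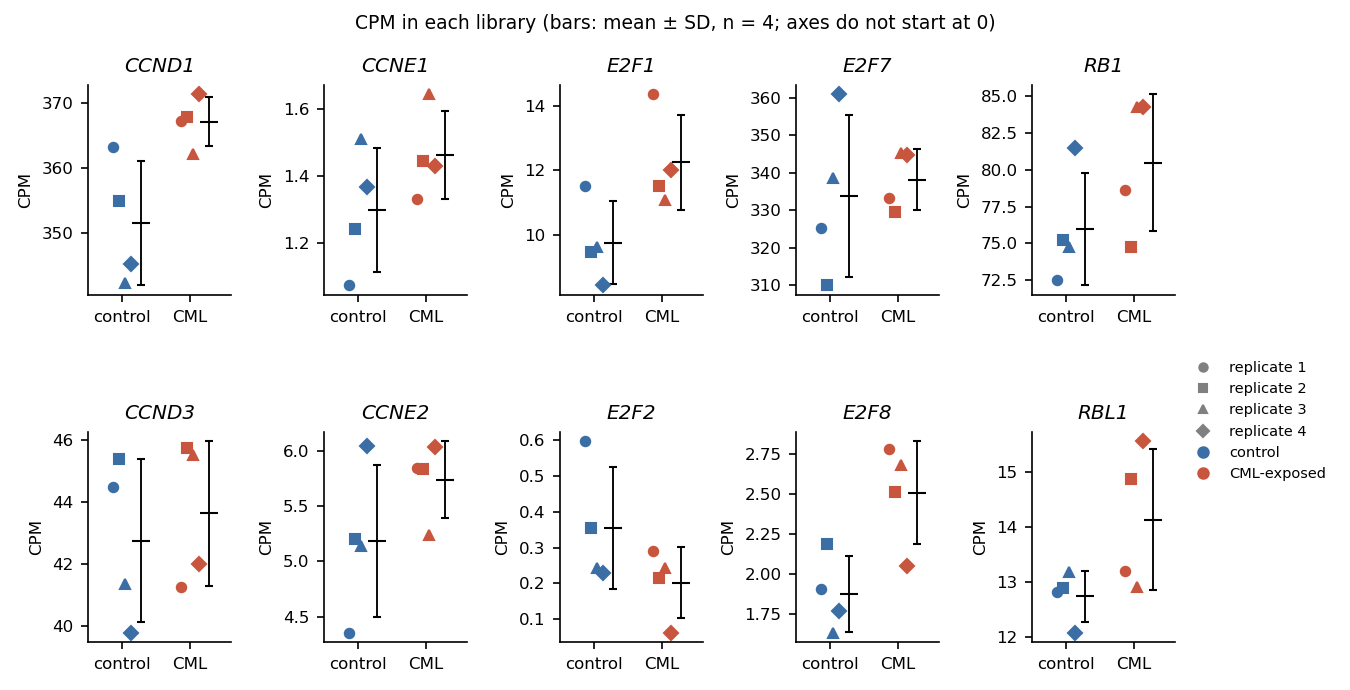
CPM of each gene in each library, 1 panel per gene with its own axis that does not start at 0, control in blue, CML-exposed in red, marker shape by replicate, and mean ± SD (n = 4) in black. The groups overlap in every panel. In CCND1, E2F8 and RBL1 a control library lies above a CML-exposed one in 1 of the 16 pairs, and in E2F1 in 2.

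E-type cyclins were low, and CCNE2 was the more abundant of the pair. CCNE1 lies on chromosome 19 from 29811991 to 29824312. CCNE1 was measured at 1.07, 1.24, 1.51 and 1.37 CPM in control and at 1.33, 1.44, 1.65 and 1.43 CPM in CML-exposed libraries. These values rest on 18 to 27 reads, and the spread among controls (14.4%) was smaller than counting error alone gives (20.6%). The log2 fold change was 0.10 with a standard error of 0.068 (limma, adjusted p = 0.836).

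CCNE2 lies on chromosome 8 from 94880224 to 94896693 and overlaps INTS8 and NDUFAF6. Control libraries held 4.35, 5.20, 5.14 and 6.04 CPM and CML-exposed libraries 5.85, 5.83, 5.24 and 6.04 CPM. Control replicate 1 was the lowest and control replicate 4 the highest of all 8 libraries, so the controls spanned the whole CML-exposed range. The means were 5.18 ± 0.690 and 5.74 ± 0.345 CPM (SD, n = 4), with a log2 fold change of 0.13 and a standard error of 0.091 (limma, adjusted p = 0.859). Whether reads were counted by strand is not given in the sources used here, so reads of overlapping genes cannot be told apart.

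E2F1, the activator best known for driving S phase genes, was measured at a moderate level. It lies on chromosome 20 from 33675477 to 33686385, with the E2F letters printed above at its start. Control libraries held 11.5, 9.46, 9.62 and 8.43 CPM and CML-exposed libraries 14.4, 11.5, 11.1 and 12.01 CPM. In both groups replicate 1 was the highest, and control replicate 1 reached the level of the lower CML-exposed libraries. The mean was 25.5% higher, 9.75 ± 1.28 against 12.2 ± 1.46 CPM (SD, n = 4). The log2 fold change was 0.30 with a 95% interval from 0.04 to 0.56 (limma, unadjusted p = 0.0283, adjusted p = 0.559). Counting error was 7.31% at 148 to 248 reads, below the spread of 13.1% among controls.

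E2F2, a second activator, was barely detected. It lies on chromosome 1 from 23505212 to 23531233. The control libraries held 10, 6, 4 and 4 reads (0.596, 0.355, 0.242 and 0.228 CPM) and the CML-exposed libraries 5, 4, 4 and 1 reads (0.289, 0.214, 0.244 and 0.0622 CPM). The highest value was in control replicate 1 and the lowest in CML-exposed replicate 4, with the remaining libraries overlapping. The log2 fold change was −0.17 with a standard error of 0.099 (limma, adjusted p = 0.796). With a pseudocount of 0.1 it was −0.60. The spread among controls (48.0%) was close to the counting error of 45.9%.

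E2F7, the abundant atypical E2F on chromosome 12 from 77021251 to 77065569, gave a narrow estimate near 0. Control libraries held 325, 310, 339 and 361 CPM and CML-exposed libraries 333, 329, 345 and 345 CPM. The controls spanned a wider range than the CML-exposed libraries and enclosed it. The means were 334 ± 21.6 and 338 ± 8.06 CPM (SD, n = 4), and the log2 fold change was 0.02 with a 95% interval from −0.09 to 0.13 (limma, adjusted p = 0.995). It turned to −0.01 after quantile normalization and without control replicate 2. The spread among controls was 6.48%, compared with a counting error of 1.32%.

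E2F8, the partner of E2F7 in repression, lies on chromosome 11 from 19224063 to 19241655 and overlaps CSRP3-AS1. Control libraries held 1.91, 2.19, 1.63 and 1.77 CPM and CML-exposed libraries 2.78, 2.51, 2.68 and 2.05 CPM. CML-exposed replicate 4 was below control replicate 2, and the remaining CML-exposed libraries were above all controls. The mean was 33.8% higher, from 1.87 ± 0.237 to 2.51 ± 0.322 CPM (SD, n = 4). The log2 fold change was 0.29 with a 95% interval from 0.08 to 0.50 (limma, unadjusted p = 0.0143, adjusted p = 0.485), and 0.40 with a pseudocount of 0.1. These are 27 to 48 reads per library, with a counting error of 16.4%.

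RB1, the retinoblastoma tumor suppressor, was expressed in all libraries. It lies on chromosome 13 from 48303751 to 48481890 and overlaps LPAR6 among others. Control libraries held 72.5, 75.2, 74.7 and 81.4 CPM and CML-exposed libraries 78.6, 74.7, 84.3 and 84.2 CPM. Replicate 4 was the highest control, and CML-exposed replicate 2 stood among the low controls. The means were 76.0 ± 3.83 and 80.5 ± 4.66 CPM (SD, n = 4), with a log2 fold change of 0.08 and a standard error of 0.051 (limma, adjusted p = 0.820).

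RBL1, a pocket protein that is itself a target of E2F, lies on chromosome 20 from 36996349 to 37095997. Control libraries held 12.8, 12.9, 13.2 and 12.1 CPM and CML-exposed libraries 13.2, 14.9, 12.9 and 15.6 CPM. CML-exposed replicates 2 and 4 were well above all controls, and replicate 1 was just above the highest control (13.199 against 13.184 CPM). Replicate 3 lay below the highest control. The means were 12.7 ± 0.468 and 14.1 ± 1.28 CPM (SD, n = 4). The log2 fold change was 0.14 with a standard error of 0.066 (limma, unadjusted p = 0.0783, adjusted p = 0.720).

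E2F1, E2F2 and CCND3, the most GC-rich members, were lower in control replicate 4 than in control replicate 1, a pair of libraries chosen after their values were seen. Among the GC-poor members CCNE2, RB1 and E2F7 were higher in control replicate 4, but RBL1 and E2F8 were lower. The difference in log2(CPM + 1) was −0.41 for E2F1 (61.6% GC) and −0.38 for E2F2 (57.4%), but 0.40 for CCNE2 (34.6%) and 0.17 for RB1 (37.1%). That of E2F2 rests on 4 reads in control replicate 4 and 10 in control replicate 1, with a counting error of 45.9%. CCNE1, at 51.7% GC, differed by 0.19, RBL1, at 40.01% GC, by −0.08, and E2F8, at 44.7% GC, by −0.07. When a correction for GC content and transcript length was applied within each library to 12928 genes (mean CPM of 1 or more, length known), E2F1 was called at the 0.3 threshold. Its log2 fold change stayed at 0.30, its standard error went from 0.109 to 0.089 and its adjusted p to 0.128 (limma). In that fit 6.78% of all genes were called, and 1 of the 9 members tested. E2F1 still overlapped between groups, with the highest control at 3.551 and the lowest CML-exposed library at 3.548 on the corrected log2 scale. CCND1 and E2F8 had adjusted p-values of 0.355 and 0.438 (limma).

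**Figure D4:**
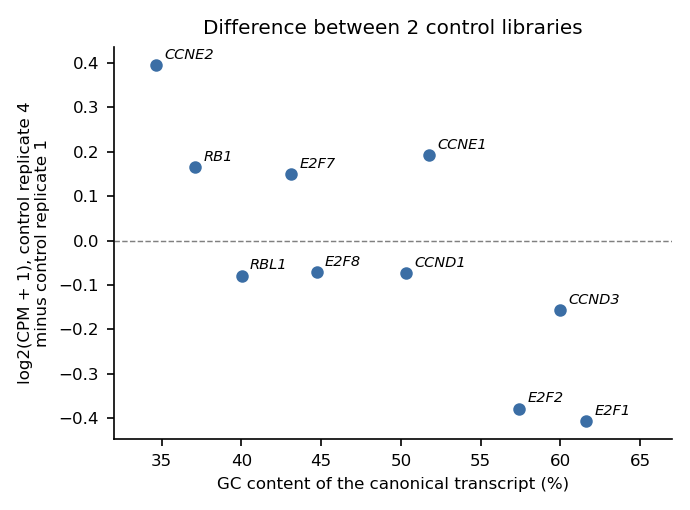
Difference in log2(CPM + 1) between control replicate 4 and control replicate 1 against the GC content of the canonical transcript, 1 point per gene. E2F1 and E2F2 lie at −0.41 and −0.38 at the GC-rich end, and CCNE2 at 0.40 at the GC-poor end. The E2F2 point rests on 4 and 10 reads.

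Whether 2 genes of a family changed unequally was tested for 5 pairs. The log2 ratio was taken in each library as the difference of their log2(CPM + 1). The added 1 exceeded every CPM of E2F2, so the E2F1 to E2F2 values understate the log2 ratio of CPM. The E2F1 to E2F2 ratio ranged from 2.94 to 3.10 in control and from 3.28 to 3.61 in CML-exposed libraries and did not overlap. Its difference of 0.47 had a 2-sided exact permutation p of 0.0286, the smallest that 70 labellings allow, and 0.143 after adjustment over the pairs. It combines log2 fold changes of 0.30 for E2F1 and −0.17 for E2F2, and the latter rests on 1 to 10 reads. With a pseudocount of 0.1 in place of 1 these were 0.33 and −0.60, and the difference was 0.92. The E2F7 to E2F8 ratio was lower by 0.27 with CML (exact permutation p = 0.0857, adjusted 0.214). CCND1 to CCND3 differed by 0.03, CCNE1 to CCNE2 by −0.03 and RB1 to RBL1 by −0.05, with adjusted exact permutation p-values of 0.714, 0.8286 and 0.714. The signs of the CCNE and RB ratios turned without single libraries. Without control replicate 3 or CML-exposed replicate 1 the CCNE difference was 0.0176 or 0.0066, and without control replicate 4 or CML-exposed replicate 2 the RB difference was 0.0023 or 0.0040.

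Around the members, 88 other genes of the pathway were read from the same fit, and 16 were called, all higher with CML, against 0.674% of all genes called higher. The lists were chosen with earlier results of these data known, so the counts here and per list below are no test of enrichment. Most of the called genes were genes of S phase and mitosis. The direct partners set by rule, CCND2, CDK4, CDK6, CDK2, CDKN1A, CDKN1B, CDKN2A, E2F3, TFDP1 and RBL2, were not called. Of the 88, 76 (86.4%) had a positive log2 fold change, with a median of 0.11, compared with 53.5% of all genes and their median of 0.01. A mean of at least 1 CPM was reached by 86 of the 88. Among the 13047 genes of the table at that level 58.8% were positive, with a median of 0.015. CCNA2, CDC45 and UBE2C were called in every fit that left out 1 library, and the other 13 were lost in at least 1 of those fits. The count of 16 went to 3 without CML-exposed replicate 2, 5 without CML-exposed replicate 3, 6 without control replicate 2 and 9 without CML-exposed replicate 1.

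**Figure D5:**
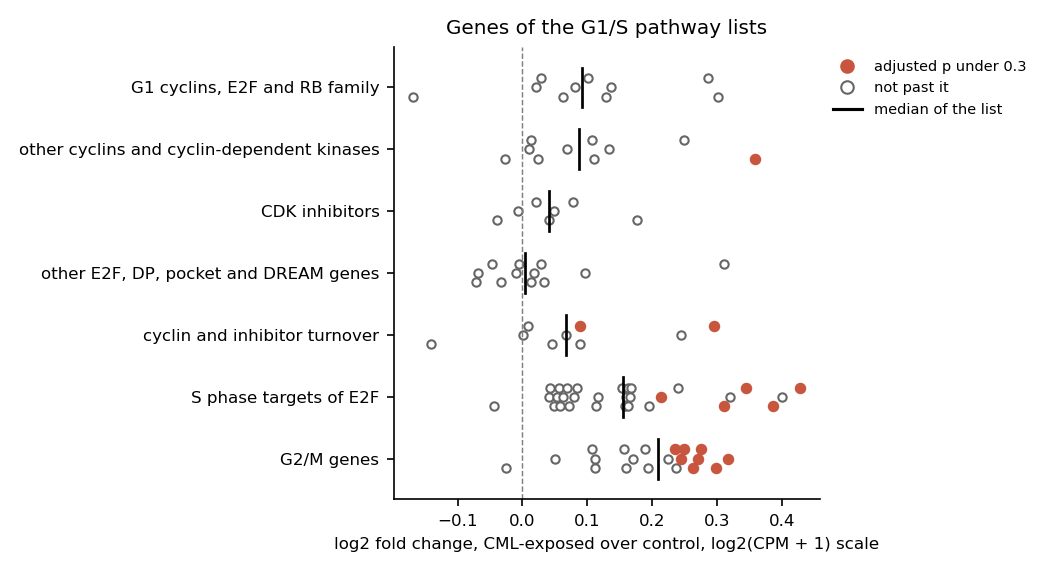
Log2 fold change of each gene on the log2(CPM + 1) scale by pathway list, with called genes (adjusted p under 0.3) filled in red, other genes open and the median of each list as a black bar. The median is 0.16 for S phase targets and 0.21 for G2/M genes, and 0.0045 for the other E2F, DP, pocket and DREAM genes.

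Of 10 other cyclins and cyclin-dependent kinases, 1 was called. CCNA2, the cyclin of S and G2 phases and a target of E2F, went from 32.2 ± 1.94 to 41.6 ± 1.397 CPM (SD, n = 4) with a log2 fold change of 0.36 (limma, adjusted p = 0.0897). The fold changes of the G1 partners CDK4, CDK2, CDK6 and CCND2 were 0.01, 0.01, 0.11 and −0.03, with adjusted p-values of 0.765 and above (limma). MNAT1, a subunit of the CDK-activating kinase, had a fold change of 0.13 and groups that did not overlap, at an adjusted p of 0.364 (limma).

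None of 7 CDK inhibitors was called by limma, and 0 had an unadjusted p under 0.05. CDKN1A and CDKN1B, which bind cyclin-CDK complexes, had log2 fold changes of 0.05 and −0.04, and CDKN2C, an inhibitor of CDK4 and CDK6, had 0.18. CDKN2A, which encodes another CDK4 and CDK6 inhibitor and is known to be deleted in this line, had 0 reads in 7 libraries and 1 read in the other. Of 12 other E2F, DP, pocket and DREAM genes 0 were called, and 2 had an unadjusted p under 0.05. These were LIN9 and LIN52, subunits of the MuvB core, with fold changes of 0.31 and 0.10 (limma, adjusted p = 0.598 and 0.602). RBBP4, a histone-binding subunit of the same core, had −0.07. E2F3, TFDP1 (the dimerization partner of E2F factors) and RBL2 had fold changes of −0.01, 0.02 and 0.03. LIN9 and RBBP4 were called after the GC and length correction, with adjusted p-values of 0.195 and 0.163 (limma).

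Among 9 genes of cyclin and inhibitor turnover 2 were called. CCNF, an F-box protein that marks E2F factors for degradation, went from 11.6 ± 0.645 to 14.4 ± 0.557 CPM (SD, n = 4) with a log2 fold change of 0.30 (limma, adjusted p = 0.173). CKS1B, a cofactor of the SCF ubiquitin ligase, had a fold change of 0.09 (adjusted p = 0.286, limma), and FBXO5, an inhibitor of the anaphase-promoting complex, had 0.25 (adjusted p = 0.40, limma). Neither CCNF nor CKS1B was called after centring on the median.

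Of 30 S phase targets of E2F, 5 were called and 29 had a positive log2 fold change. CDC45, a part of the replicative helicase, went from 7.50 ± 0.334 to 10.4 ± 0.417 CPM (SD, n = 4) with a fold change of 0.43 (limma, adjusted p = 0.0856). TYMS, RRM2 and RRM1, which make nucleotides for DNA synthesis, had fold changes of 0.35, 0.39 and 0.21 (limma, adjusted p = 0.0980, 0.278 and 0.286). UHRF1, which links DNA methylation to replication, had 0.31 (limma, adjusted p = 0.183). The summed CPM of the 30 genes was 857 to 874 in control and 940 to 958 in CML-exposed libraries. The count of 5 called went to between 1 and 3 without any 1 library other than control replicate 4. It was 2 after median centring, 3 after quantile normalization and 11 after the GC and length correction, a fit in which calls over all genes went from 158 to 877.

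Of 20 G2/M genes, 8 were called and 19 had a positive log2 fold change. They included CCNB1, the mitotic cyclin, at 67.6 ± 2.83 and 82.0 ± 2.47 CPM (SD, n = 4), and FOXM1, the transcription factor of G2/M genes, at 49.0 ± 1.64 and 57.9 ± 1.34 CPM. Their fold changes were 0.28 and 0.24 (limma, adjusted p = 0.0889 for both). UBE2C, BUB1, KIF20A, TPX2, TTK and TOP2A, which act in chromosome segregation and ubiquitination by the anaphase-promoting complex, had fold changes from 0.25 to 0.32. The count of 8 called went to 1 without CML-exposed replicate 2, 3 without CML-exposed replicate 3, 4 without control replicate 2 and 13 without control replicate 4.

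The genes whose pattern over the 8 libraries was most like the members' mean were YIPF5, CENPO, TPX2, CD274 and SORD. Likeness was the mean absolute difference in z-scored log2(CPM + 1) from the mean of the 9 members with at least 1 CPM. It was 0.346 to 0.362 for these genes, compared with a median of 0.834 over 13038 genes. The mean z-score of the members was −0.63 to −0.37 in control and 0.35 to 0.65 in CML-exposed libraries, a description with no test.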

How the data were processed

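RNA-Seq was performed on 4 control and 4 CML-exposed libraries of MDA-MB-231 cells, grouped by sample title. The authors deposited CPM values in 17681 rows, and the submitters' processing notes name edgeR and hg38. The aligner, counting tool and annotation for this experiment are not given in the sources used here. Between 86.4% and 87.7% of values above 0 lay within 0.1 of whole reads, so the counts were estimates and no count test was run. Low genes are limited by counting error.

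Rows with the same symbol were averaged (32 symbols) and log2(CPM + 1) entered a comparison of the groups by limma 3.58.1 (R 4.3.3, variance trend on), which was tested on simulated data. Family ratios were compared by exact permutation in scipy 1.17.1 and figures drawn with matplotlib 3.10.9. GC content and length came from the Ensembl canonical transcript, and gene positions and promoters from RefSeq. All members, called pathway genes, the 3 smallest p-values of each list, direct partners and the 5 most similar genes were named by rule. The members and lists were chosen with earlier results of these data known. Alternatives were another pseudocount, filters, scalings, separate rows, no trend, GC and length correction, replicate block and single libraries left out. A comparison of the members' proteins was not made.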

Additional observations from a re-analysis of the deposited data

Results flagged for a closer look

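In 84 groups of 4 libraries over the 42 genes named, 3 libraries stood far from the others of their group by Dixon's test, against 4.2 that chance gives at about 1 in 20. CCNB1 was at 71.8 CPM in control replicate 4, where the other controls were at 65.6 to 66.5 CPM. CCND2 was at 21.3 CPM in CML-exposed replicate 4 and at 19.7 to 20.002 CPM in the others. CDKN2A was at 0.0609 CPM, which is 1 read, in CML-exposed replicate 3 and at 0 in the others. No member was among them.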

How the results depend on the processing

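Over 19 alternatives, 183 of 186 values of the members kept their sign. The exceptions were CCND3 without control replicate 4 (range without single libraries −0.0041 to 0.058) and E2F7 (−0.0123 after quantile normalization, −0.0136 to 0.059 without single libraries). Members called went from 0 to 1 after GC and length correction (E2F1) and 2 with the replicate block added (E2F1 and CCND1, limma adjusted p = 0.0964 and 0.298). Genes called overall went from 158 to 877 and 953 in those fits, to 321 without both replicate 4 libraries (chosen after seeing the data), to 73 after median centring and to between 20 and 690 without single libraries. The share called higher was 75.3%, against 63.0% after median centring, 62.5% after quantile normalization and 62.8% after GC and length correction. Pathway genes called went from 16 to 32, 33 with the block, 10 after median centring and 3 to 24 without single libraries. In their deviations from the group mean, same-numbered libraries correlated between −0.0645 and 0.334, with a mean of 0.110, against −0.036 for different numbers. The highest values were those of replicate 4 (0.334) and replicate 1 (0.199). Whether replicates shared an effect was not tested, and the numbers were not taken as pairs. With the replicate block alone 189 genes were called, 82 of them shared with the 158, and the E2F1 to E2F2 difference of 0.47 had an exact permutation p of 0.125, the smallest that pairs allow. Without single libraries it was 0.418 to 0.529. The CCNE1 to CCNE2 difference was 0.0152 with a pseudocount of 0.1 and −0.0987 to 0.0176 without single libraries, and RB1 to RBL1 −0.116 to 0.0040. The causes were not tested. Depth limits E2F2, CCNE1 and E2F8 most.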
